A study of Homo sapiens with 6 samples.

Results

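The red cell membrane skeleton genes followed here were SLC4A1, SPTB, ANK1, EPB41, EPB42, DMTN, ADD1, ADD2 and TMOD1. They were taken by symbol from the 6 deposited gene tables, 9 genes of the 62754 in each table, and each symbol matched 1 row.

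RNA was measured in HUDEP-2, a human line of immortalised erythroid progenitors with an adult-type globin pattern. All 6 libraries came from cells kept in serum-free medium with erythropoietin (3 units per ml), stem cell factor (50 ng per ml), dexamethasone (1e-06 M) and doxycycline (1 µg per ml). In 3 libraries the cells carried a lentiviral short hairpin RNA against MEN1 (the MEN1 hairpin), labelled MEN1sh2, and in 3 they carried a non-targeting control shRNA, labelled Controlsh and wild type. Both groups were under puromycin (2 µg per ml) for 48 h, starting 24 h after infection, and were profiled at 72 h. MEN1 encodes menin, a scaffold subunit of the MLL1 histone methyltransferase complex, and the series asks how that complex bears on fetal hemoglobin repression. The design has 1 hairpin and 1 cell line, so loss of menin and an off-target effect of the hairpin cannot be told apart. The replicates are labelled biological, without saying whether they were separate transductions, so p-values measure only the spread between these libraries.

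The membrane skeleton is a lattice under the red cell membrane that lets the cell deform and recover its shape. Long spectrin tetramers meet at short actin filaments, and the lattice is tied to the membrane at 2 places. At the first, ankyrin links spectrin to band 3, the anion exchanger encoded by SLC4A1. At the second, the junctional complex of actin, protein 4.1R, dematin, adducin and tropomodulin binds membrane proteins such as glycophorin C. Inherited defects in several of these genes cause spherocytosis or elliptocytosis, and the proteins are assembled as erythroblasts mature.

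The promoters of the skeleton genes differ in the erythroid factor motifs they hold, and a few are printed for that reason. By symbol, 6 of the 9 genes were matched to the RefSeq promoter table (GRCh38.p14), with 10 start sites in all, and SLC4A1, ANK1 and DMTN were not matched. The 250 bases before each start were searched on both strands for the GATA motif (AGATAA or AGATAG, and the same with T in first place), which the erythroid factor GATA1 can bind, and for a CACC box (CCNCNCCC), the kind of site that KLF1 can bind; matches of the 2 motifs could overlap. SPTB and EPB42 are shown because each holds 2 GATA matches and 3 CACC matches in 1 window, and ADD1 because its window holds neither. Capitals mark the matches and each sequence runs 5′ to 3′ on the gene's strand.
SPTB, chr14:64879908-64880157, minus strand: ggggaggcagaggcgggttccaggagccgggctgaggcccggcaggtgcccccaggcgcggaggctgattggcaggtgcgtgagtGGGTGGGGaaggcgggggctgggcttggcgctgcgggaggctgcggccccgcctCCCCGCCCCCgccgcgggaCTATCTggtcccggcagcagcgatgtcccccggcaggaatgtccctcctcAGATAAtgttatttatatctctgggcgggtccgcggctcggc
EPB42, chr15:43221019-43221268, minus strand: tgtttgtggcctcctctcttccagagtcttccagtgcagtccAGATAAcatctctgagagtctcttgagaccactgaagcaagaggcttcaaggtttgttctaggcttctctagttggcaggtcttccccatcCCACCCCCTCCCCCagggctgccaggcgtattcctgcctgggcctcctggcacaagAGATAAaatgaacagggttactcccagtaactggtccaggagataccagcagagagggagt
ADD1, chr4:2843594-2843843, plus strand: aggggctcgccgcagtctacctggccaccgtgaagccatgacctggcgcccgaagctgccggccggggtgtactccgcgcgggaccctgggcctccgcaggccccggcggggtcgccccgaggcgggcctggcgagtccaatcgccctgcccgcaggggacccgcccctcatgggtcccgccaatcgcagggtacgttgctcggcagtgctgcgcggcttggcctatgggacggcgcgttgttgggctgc

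The GATA matches ended 86 and 36 bases before the start of SPTB, and 202 and 55 bases before the start of EPB42. The first EPB41 start (183 bases) and the second ADD2 start (189 bases) held 1 GATA match each, so that 4 of the 10 windows had one, against 22.3% of the 35116 promoters in the table. A CACC box was found in 8 of the 10 windows and in 53.4% of all promoters, and 6.8% of all promoters held both motifs. A match describes the letters only, and the expression tables do not say which start site was used.

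MEN1 itself was at 6.29, 6.44 and 6.88 TPM (a length-scaled share of the library) with its shRNA, against 41.2, 39.6 and 37.1 TPM in the controls. Depth inferred from the tables ran from 5.56 to 10.8 gigabases of aligned sequence per library, and 13865 to 14361 genes per library reached 1 TPM. The erythroid label was set against markers. HBB was the most abundant erythroid marker in every library. Summed TPM of the 9 erythroid markers was 55766 to 61896 in the controls and 97771 to 109853 with the MEN1 hairpin. Most of that sum was globin: mean HBB, HBA1 and HBA2 were 30237.5, 12208.2 and 11975 TPM in the controls. With the MEN1 hairpin they were 50170.5, 23556.5 and 23236.4 TPM. Among platelet markers, PF4 and PPBP were listed at 0 in all 6, but ITGA2B was at 16.1 to 36.3 TPM and TUBB1 at 1.66 to 20.6 TPM. Of the mast cell markers, TPSAB1 was at 421 to 747 TPM, but CPA3 was at 0.331 to 0.835 TPM and MS4A2 at 0.749 to 2.55 TPM.

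Of the 9 skeleton genes, 7 rose with the MEN1 hairpin, 0 fell and 2, ANK1 and ADD2, did not pass the test (limma on log2(TPM + 1), adjusted p under 0.05 over 14294 genes). The steepest rise was that of band 3 (SLC4A1, 3.84 times the control level), then dematin (DMTN, 2.59 times) and protein 4.1R (EPB41, 2.29 times). The same test called 53.6% of all genes, 22.1% as higher and 31.5% as lower. The median log2 fold change was 0.49 over the 9 genes and -0.07 over all genes tested. All 9 passed the filter on low values, since the lowest TPM in any library was 67.5, for TMOD1. In bulk RNA, more transcript per cell and more cells that express the gene cannot be told apart.

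**Figure D1:**
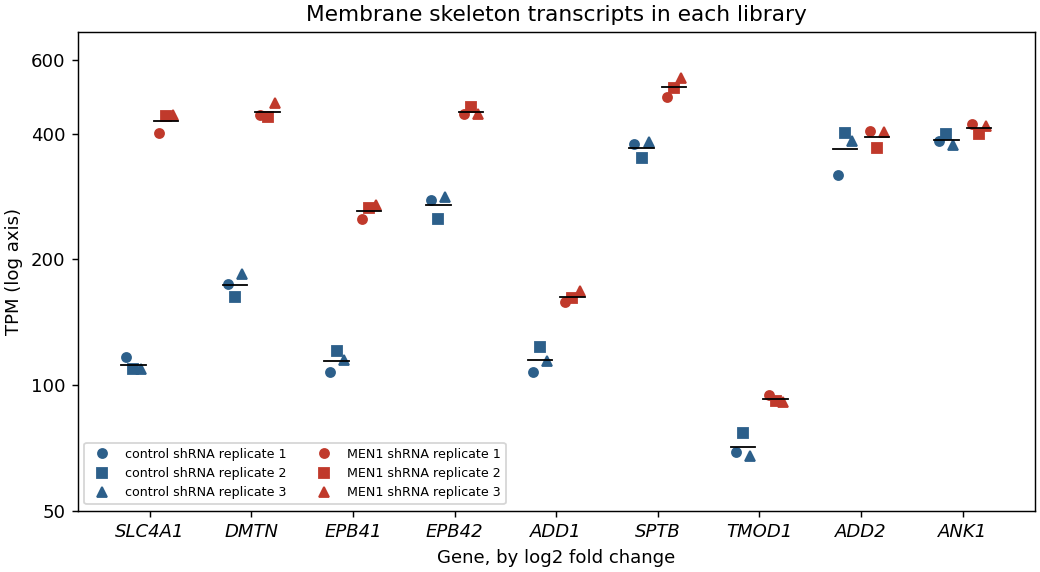
TPM of the 9 membrane skeleton genes (log axis) in each library, with genes ordered from the highest to the lowest log2 fold change; marker shape is the replicate, blue is control shRNA, red is MEN1 shRNA and the black bars are group means. The red points lie above the blue ones for all genes except ADD2, where they overlap, and the gap narrows from SLC4A1 (429 against 112 TPM) to ANK1 (413 against 386 TPM).

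Band 3 is the main integral protein to which the skeleton is tied, and it also exchanges chloride for bicarbonate. SLC4A1 (ENSG00000004939, chromosome 17, 44248390 to 44268141, minus strand) was at 402, 441 and 444 TPM in MEN1 hairpin replicates 1, 2 and 3. In control replicates 1, 2 and 3 it was at 117, 110 and 109 TPM. The lowest MEN1 hairpin library was therefore far above the highest control. The means were 429 ± 23.5 and 112 ± 4.17 TPM (SD, n = 3 each), a log2 fold change of 1.93 (SE 0.0612, adjusted p 8.37e-06 in limma). This change was larger than that of 99.1% of all genes tested.

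**Figure D2:**
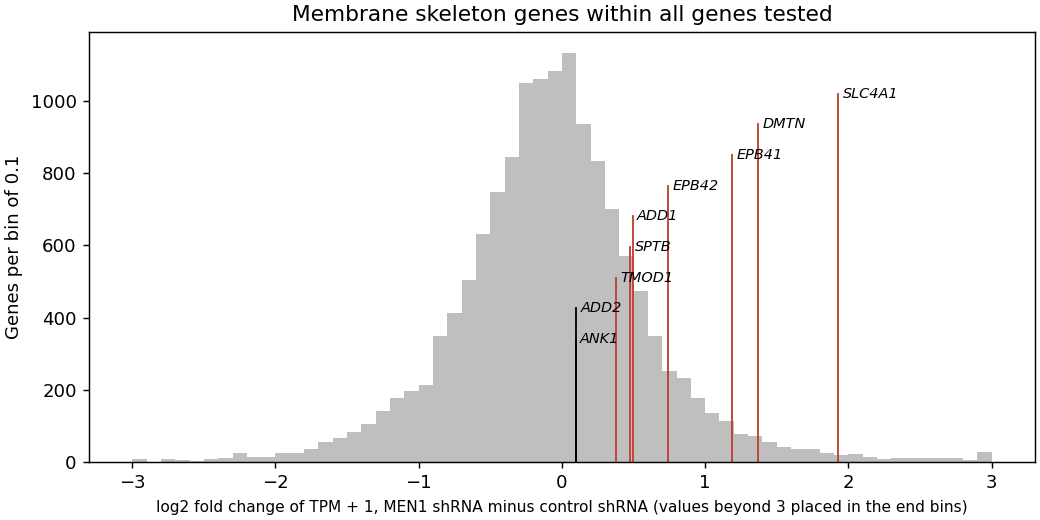
Histogram of log2 fold changes (MEN1 shRNA minus control shRNA) of the 14294 genes tested, in bins of 0.1, with a vertical line for each membrane skeleton gene; red lines passed the test and black lines did not, and line height carries no value. SLC4A1 at 1.93 lies in the right tail, and ANK1 and ADD2 stand close to the centre of the distribution at 0.09 and 0.10.

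Ankyrin-1 and protein 4.2 join band 3 to spectrin. ANK1 (ENSG00000029534, chromosome 8, 41653220 to 41896741, minus strand), the gene most often altered in hereditary spherocytosis, was at 422, 400.2 and 417 TPM with the MEN1 hairpin and at 385, 399 and 375 TPM in the controls. The MEN1 hairpin libraries lay above the controls, but the nearest ones differed by less than 1 TPM. This was a log2 fold change of 0.09 (95% confidence interval -0.03 to 0.22, adjusted p 0.163 in limma). Scalings that centre the median gene or leave out globin and mitochondrial transcripts gave 0.18 and 0.16, which passed (adjusted p 0.0196 and 0.0296). An opposite-strand gene without a name inside ANK1, ENSG00000289514, was at 20.9 to 24.6 TPM with the MEN1 hairpin and 29.7 to 34.6 TPM in the controls, at most 8.66% of the TPM of ANK1; whether counting used strand is not given in the sources used here.

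EPB42 (ENSG00000166947, chromosome 15, 43197227 to 43221018, minus strand) encodes protein 4.2, which stabilises the link between band 3 and ankyrin. It was at 446, 464 and 446 TPM with the MEN1 hairpin and at 278, 249 and 282 TPM in the controls, with no overlap between the groups. The means of 452 ± 10.6 and 270.0 ± 17.9 TPM gave a log2 fold change of 0.74 (SE 0.0627, adjusted p 8.34e-05 in limma). The levels of EPB42 and SLC4A1 thus drew together: EPB42 had 2.42 ± 0.157 times the TPM of SLC4A1 in the controls and 1.06 ± 0.0534 times with the MEN1 hairpin.

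Spectrin forms the strands of the lattice. Beta-spectrin, SPTB (ENSG00000070182, chromosome 14, 64746283 to 64879907, minus strand), was at 489, 515 and 544 TPM with the MEN1 hairpin and at 378, 350.1 and 382 TPM in the controls. Each MEN1 hairpin library was above each control, by 1.39 times on the means, with a log2 fold change of 0.48 (SE 0.0628, adjusted p 0.000528 in limma).

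The junctional complex holds the other 5 genes. EPB41 (ENSG00000159023, chromosome 1, 28887091 to 29120046, plus strand), whose product protein 4.1R strengthens the binding of spectrin to actin, was at 250.2, 265 and 269 TPM with the MEN1 hairpin. In the controls it was at 108, 121 and 115 TPM, less than any MEN1 hairpin library. This was a log2 fold change of 1.19 (SE 0.0628, adjusted p 2.37e-05 in limma).

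DMTN (ENSG00000158856, chromosome 8, 22048995 to 22082527, plus strand) encodes dematin, an actin-bundling protein. Its TPM was 443, 438 and 474 with the MEN1 hairpin and 175, 163 and 184 in the controls, again with a wide gap between the groups. This was a log2 fold change of 1.37 (SE 0.0645, adjusted p 1.66e-05 in limma), larger than that of 97.5% of all genes tested.

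Adducin is a complex of alpha and beta chains that caps the fast-growing end of actin and helps recruit spectrin. Alpha-adducin, ADD1 (ENSG00000087274, chromosome 4, 2843844 to 2930076, plus strand), is expressed in many tissues. It was at 158, 162 and 168 TPM with the MEN1 hairpin and at 108, 123 and 114 TPM in the controls, with no overlap (log2 fold change 0.49, SE 0.0658, adjusted p 0.000563 in limma).

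Beta-adducin, ADD2 (ENSG00000075340, chromosome 2, 70607618 to 70768225, minus strand), is more restricted to blood and brain. It was at 406, 370 and 404 TPM with the MEN1 hairpin and at 318, 402 and 385 TPM in the controls. The groups overlapped, and control replicate 1 was the lowest of the 6. Its log2 fold change was 0.10 (95% confidence interval -0.12 to 0.32, adjusted p 0.407 in limma), and without control replicate 1 it was -0.0027.

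For ADD2 the direction also depended on the deposited quantity. Its gene-level coverage per gigabase of aligned sequence was 10.7, 10.8 and 8.20 with the MEN1 hairpin and 13.8, 11.9 and 12.1 in the controls, so that here the MEN1 hairpin libraries were the lower ones. Coverage was examined after the TPM values were seen, and it was put on a log scale in 2 ways. With 1 added to coverage per gigabase, as first tried, the log2 fold change was -0.32 and did not pass (adjusted p 0.0553 in limma). With each gene first brought to its mean TPM, which was tried after that result because adding 1 compresses genes of low coverage, it was -0.35 and passed (adjusted p 0.0381 in limma). Whether ADD2 is called lower on coverage thus depends on that choice. The ratio of depth-scaled FPKM to coverage, which is 1 in most genes with a single transcript, ranged from 10.7 to 22.9 between libraries for ADD2. Over the 6 libraries the coefficient of variation of this ratio was 24.8% for ADD2 and at most 4.26% for any of the other 8 genes. The ratio was 16.1 to 22.9 with the MEN1 hairpin and 10.7 to 15.3 in the controls; the share of it due to the division of reads among isoforms was not tested.

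TMOD1 (ENSG00000136842, chromosome 9, 97501180 to 97601743, plus strand) encodes tropomodulin, which caps the slow-growing end of actin and sets filament length. It was the least abundant of the 9 genes in all 6 libraries, at 94.8, 91.4 and 91.3 TPM with the MEN1 hairpin and 69.2, 76.9 and 67.5 TPM in the controls. The groups did not overlap, and TMOD1 rose by a log2 fold change of 0.38 (SE 0.0663, adjusted p 0.00223 in limma). The opposite-strand gene TSTD2, which overlaps it, was at 14.4 to 16.7 TPM with a log2 fold change of -0.10 (adjusted p 0.328 in limma).

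Groups did not overlap in 8 of the 9 genes, with the MEN1 hairpin libraries above in all 8, whereas 25.8% of all genes tested had that order and 61.8% had no overlap in either direction. The order of levels differed between the groups. In the controls ANK1 (386 ± 12.3 TPM), SPTB (370.1 ± 17.5 TPM) and ADD2 (368 ± 44.5 TPM) were the most abundant and had overlapping values. EPB42 and then DMTN followed, each separated from its neighbours, and ADD1, EPB41 and SLC4A1 (112 to 115 TPM on the means) again overlapped. With the MEN1 hairpin SPTB was highest at 516 ± 27.6 TPM, without overlap with the next gene. Below it EPB42, DMTN, SLC4A1, ANK1 and ADD2 formed a run of neighbouring genes with overlapping values between 452 and 393 TPM on the means. EPB41, ADD1 and TMOD1 came last, each apart from the next.

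Together the 9 transcripts took 0.311%, 0.315% and 0.326% of all TPM in the MEN1 hairpin libraries and 0.193%, 0.199% and 0.201% in the controls. Every MEN1 hairpin library was above every control, and the ratio of the means was 1.60. The difference of 0.119 percentage points gave p = 0.1 in an exact permutation test (2-sided), the minimum for 3 against 3 libraries. Within this sum the mixture shifted. SLC4A1 went from 5.64% ± 0.331 to 13.5% ± 0.552 of it and DMTN from 8.78% ± 0.540 to 14.2% ± 0.320, while ANK1 went from 19.5% ± 0.779 to 13.0% ± 0.464 and ADD2 from 18.6% ± 1.92 to 12.4% ± 0.651 (SD, n = 3 each). EPB42 held 13.6% ± 0.996 and 14.3% ± 0.538, a difference smaller than the spread between control libraries.

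**Figure D3:**
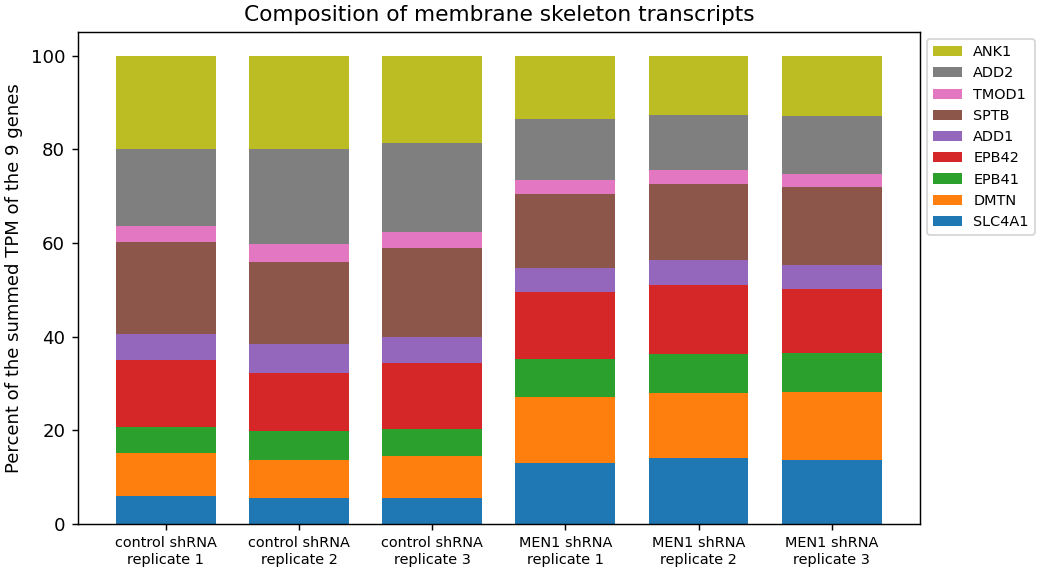
Stacked bars of the percent of the summed TPM of the 9 membrane skeleton genes taken by each gene, 1 bar per library, with control shRNA libraries at the left and MEN1 shRNA libraries at the right. The SLC4A1 segment at the bottom is 5.42% to 6.02% of the bar in the controls and 12.9% to 14.0% with the MEN1 shRNA, and the ANK1 segment at the top shrinks from at least 18.6% to at most 13.6%.

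Ratios within a library do not depend on how libraries are scaled, so 7 gene pairs were compared in this way, of which 6 are reported here. Of the 6, 5 had no overlap between the groups and an exact permutation p of 0.1 each (2-sided, 0.14 after Benjamini-Hochberg adjustment over all 7). No pair could pass at this sample size, and a limma fit of the ratios beside all genes, added after the values were seen, gave adjusted p-values for them. SLC4A1 rose more than its widely expressed paralog SLC4A2 (ratio 1.68 ± 0.0686 in the controls and 4.42 ± 0.0959 with the MEN1 hairpin, adjusted p 0.000128 in limma). SPTB likewise moved away from SPTBN1, the beta-spectrin of most other tissues (42.3 ± 5.59 against 89.6 ± 14.1, adjusted p 0.00123 in limma).

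Between genes of the skeleton itself, the fall of EPB42 relative to SLC4A1 given above had an adjusted p of 0.000200 in the limma fit of ratios. ANK1 relative to SPTB was 1.05 ± 0.0837 in the controls and 0.801 ± 0.0529 with the MEN1 hairpin (adjusted p 0.0133 in limma), and ADD2 relative to ADD1 was 3.19 ± 0.210 and 2.42 ± 0.146 (adjusted p 0.00916 in limma). The remaining pair, TMOD1 and TMOD3, the tropomodulin of most other cells, overlapped between groups, with a difference in the log2 ratio of 0.03 (95% confidence interval -0.18 to 0.24) in limma.

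**Figure D4:**
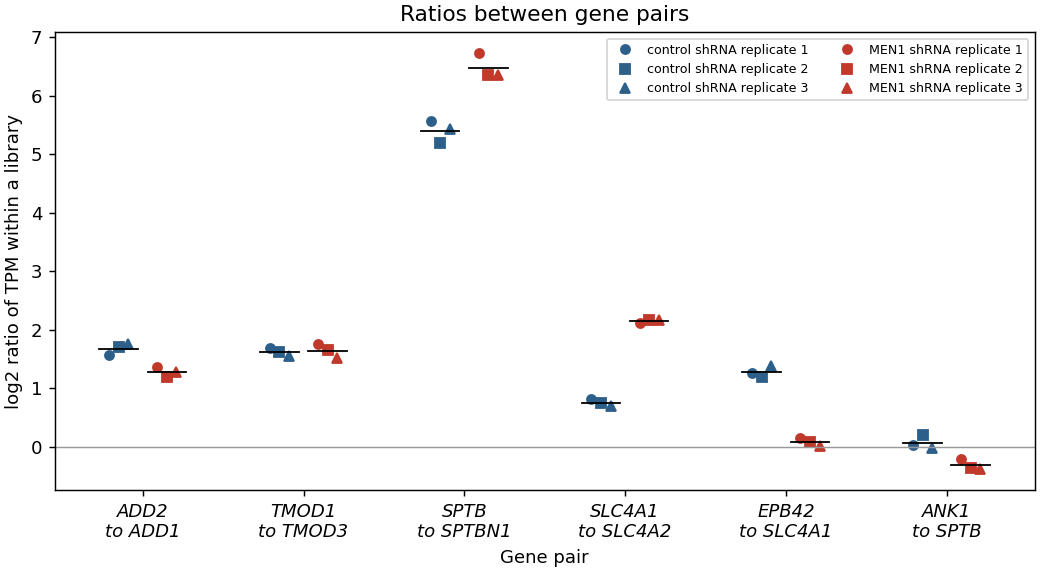
log2 of the TPM ratio of each of 6 gene pairs in every library, with blue for control shRNA, red for MEN1 shRNA, marker shape for the replicate and black bars for group means; 0 means equal TPM. The ratio of SLC4A1 to SLC4A2 moves up and that of EPB42 to SLC4A1 comes down to near 0, while TMOD1 to TMOD3 overlaps between the groups.

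Of 11 other genes of the skeleton, in a list chosen by role, 5 rose, 2 fell and 4 did not pass, with a median log2 fold change of 0.12; of all genes tested, 53.6% were called. The largest rise was that of MPP1, a scaffold that ties protein 4.1R to glycophorin C, from 387 ± 11.1 to 790.2 ± 59.7 TPM (1.03 on the log2 scale, adjusted p 3.51e-05 in limma). Genes that also rose were CAPZA2 (log2 fold change 0.40) and CAPZA1 (0.25), which encode actin-capping subunits, and TMOD3 (0.35). ADD3, the adducin chain of most non-erythroid cells, fell from 25.5 ± 1.90 to 15.1 ± 1.54 TPM (-0.72 on the log2 scale, adjusted p 0.000646 in limma), opposite in direction to ADD1. Tropomyosin TPM3 was called lower at -0.23 (adjusted p 0.0304 in limma), but this call was lost under 11 of 18 alternatives, with adjusted p-values of 0.0547 to 0.327, and in 5 of the 6 fits that left out 1 library. CAPZA1 and TPM3 were named after their values were seen. ACTB, beta-actin, the actin of the lattice, was at 3392 ± 274 TPM in the controls and 3550.1 ± 68.2 TPM with the MEN1 hairpin, and did not pass (adjusted p 0.460 in limma, although 0.00550 with quantile normalization).

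Membrane proteins that the skeleton holds on to were mostly higher: 11 of 14 rose and 3 fell, with a median log2 fold change of 0.76. The shares over all genes tested were 22.1% higher and 31.5% lower. GYPB (log2 fold change 1.95), XK (1.09) and RHCE (2.71), which carry blood group antigens, were among the 11. GYPB and RHCE have close paralogs, so reads may be divided among copies. The 3 that fell were CD47 (-1.23), a self-recognition signal held by the ankyrin complex, ICAM4 (-0.80), an adhesion receptor, and CD44 (-0.36), also an adhesion receptor; the last 2 were named after their values were seen.

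Non-erythroid paralogs of the skeleton genes were low and mixed. Of 22 paralogs, 14 passed the filter, 7 rose and 4 fell, and 1, TGM3, was listed at 0 in every library. Over all genes tested, 22.1% were called higher and 31.5% lower. SLC4A2 rose from 66.6 ± 1.32 to 97.01 ± 3.33 TPM and EPB41L4A from 20.7 ± 2.81 to 36.4 ± 1.89 TPM. EPB41L1 was at 4.47 to 8.94 TPM with the MEN1 hairpin and at most 0.943 TPM in the controls. It passed the filter only through the MEN1 hairpin libraries, so its place among the 7 rises is no independent result. The beta-spectrin paralog SPTBN1 went down from 8.82 ± 0.833 to 5.87 ± 1.10 TPM (a change of -0.52 on the log2 scale, adjusted p 0.0172 in limma), a call lost without the filter on low values (adjusted p 0.0570) and without control replicate 2 (0.0615). Apart from SLC4A2 and TGM2, no paralog reached more than 38.6 TPM in any library, below the lowest value of any of the 9 skeleton genes.

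**Figure D5:**
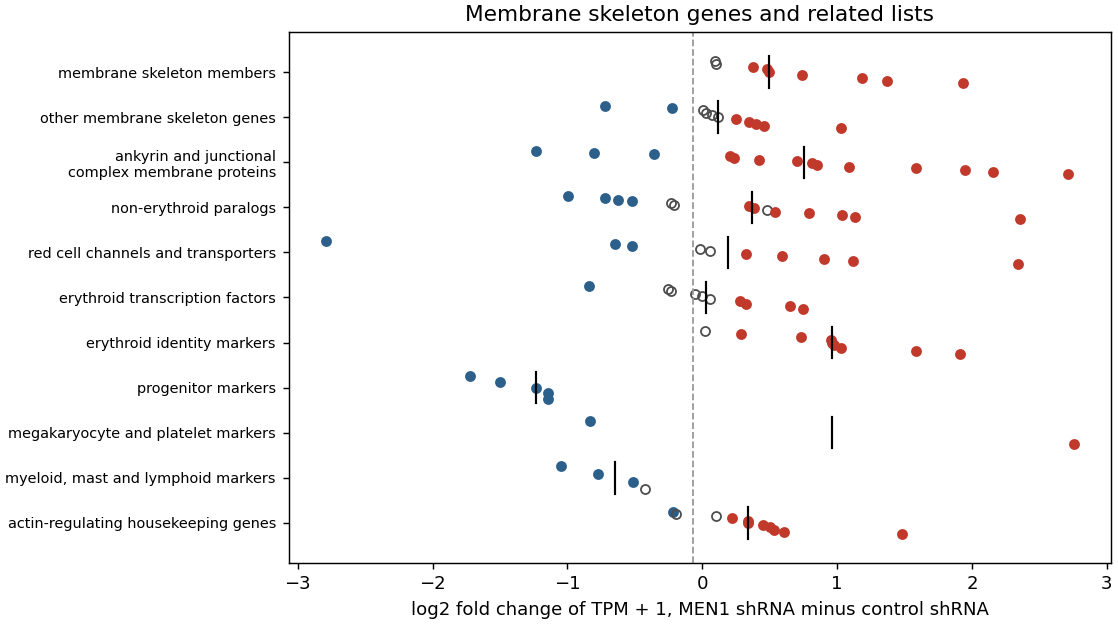
log2 fold changes (MEN1 shRNA minus control shRNA) of the tested genes of each list, 1 row per list; filled red points rose, filled blue points fell, open points did not pass, black bars are list medians and the dashed line is the median of all genes tested (-0.07). Membrane skeleton genes and erythroid identity markers lie to the right of that line, and all 5 tested progenitor markers lie to the left.

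Red cell channels and transporters gave 5 rises and 3 falls among 10 genes, where 22.1% of all genes tested rose and 31.5% fell. The water channels AQP3 (log2 fold change 0.90) and AQP1 (2.34) and the potassium channel KCNN4 (1.11) rose. The stretch-activated channel PIEZO1 fell from 121 ± 7.16 to 76.9 ± 3.47 TPM (-0.65 on the log2 scale). The largest change among the 10 was the fall of SLC16A1, from 140.6 ± 5.50 to 22.5 ± 15.9 TPM (-2.79 on the log2 scale). SLC16A1 was named after its values were seen. Of 10 erythroid transcription factors, 4 rose and 1 fell, a share close to the 53.6% called over all genes tested. TAL1 (0.74), ZFPM1 (0.65) and KLF3 (0.28) were higher, LDB1 was lower (-0.84), and KLF1, a known activator of several skeleton genes, was at 533 ± 9.76 TPM with the MEN1 hairpin and 553 ± 36.2 TPM in the controls (adjusted p 0.508 in limma).

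Markers of stage and of other cell types were also compared, and their directions differed between the lists. For comparison with the counts below, 22.1% of all genes tested rose and 31.5% fell. Of 9 erythroid identity markers, 8 rose and 1, EPOR, did not pass (log2 fold change 0.02); HEMGN (1.91), AHSP (0.98) and ALAS2 (1.03) were among the rises. Of 8 progenitor markers, 5 passed the filter and all 5 fell, including CSF2RB (-1.72), KIT (-1.15), MYB (-1.23) and RUNX1 (-1.50). Their summed TPM was 308 to 353 with the MEN1 hairpin and 763 to 830 in the controls. Of 8 megakaryocyte and platelet markers, 6 stayed below 1 TPM in every library; TUBB1 rose (2.75) and ITGA2B fell (-0.83), and the summed TPM was 34.9 to 40.4 against 33.6 to 38.4. Of 11 myeloid, mast and lymphoid markers 7 stayed below 1 TPM in every library, 3 fell and 0 rose. Nearly all of the summed TPM of 431 to 515 against 593 to 771 was TPSAB1. LYZ, 1 of the 3, passed the filter only through the controls (1.27 to 1.67 TPM, against 0.151 to 0.268 TPM with the MEN1 hairpin). The part of these shifts in the skeleton result was not tested.

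Actin regulators of general use, 11 genes listed for comparison, gave 8 rises and 1 fall with a median log2 fold change of 0.34. Among all genes tested the shares were 22.1% higher and 31.5% lower. ARPC3, a subunit of the Arp2/3 complex, went from 168 ± 9.28 to 471 ± 26.8 TPM (1.48 on the log2 scale), and TLN1 (0.61) and MYH9 (0.54) also rose. The lists were not tested against each other.

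Genes whose profile over the 6 libraries was most like that of SLC4A1 were found among 8480 other genes with a mean of at least 10 TPM. The nearest, by root mean square difference of centred log2(TPM + 1), were HEMGN (0.0345), RASL11A (0.0400), GYPB (0.0539), CCND3 (0.0549) and ITSN1 (0.0572). HEMGN, an erythroid nuclear protein, was at 1108 ± 88.4 TPM with the MEN1 hairpin and 294 ± 3.94 TPM in the controls. For SPTB the nearest were PHF13 (0.0197), KLF9 (0.0202), CD2AP (0.0243), B3GNT2 (0.0249) and PIK3AP1 (0.0251), and none of the other 8 skeleton genes was among these 5. With 6 libraries in 2 groups this measure mostly ranks genes by the size of the group difference.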

How the data were processed

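Poly(A)-selected RNA was made into directional libraries, per the labels' protocols. Per the submitters' processing notes, the tools were FastQC, Trimmomatic, STAR 2.7.1a, Picard 2.20.4 and StringTie 2.0.4 with build hg38; the sources used here give neither their order nor the annotation. The deposited TPM and FPKM values are scaled by the authors for gene length and library, and the deposited coverage is mean coverage per base, an unscaled signal, per the file headers. In control replicate 2, negative residues near 0 in 2 genes, an unexplained other value in the deposited columns, were set to 0. GENCODE v29 holds 58261 of the gene identifiers, 99.97% of them at an overlapping GRCh38 position; coordinates are those of the tables.

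The filter kept genes at 1 TPM or more in 3 or more libraries, and log2(TPM + 1) was compared with limma 3.58.1 in R 4.3.3 (mean-variance trend, 2-sided, Benjamini-Hochberg over 14294 genes, threshold 0.05); fold changes of low genes are understated. All single-gene p-values are from this fit unless named otherwise. The fit was tested on simulated data. A first simulation missed the recovery limit set for it, and both the simulation and its limits were then changed; in the later one the share of false calls was slightly above its nominal level. Aligned sequence per library was inferred from the ratio of coverage to FPKM in genes with 1 transcript; no read counts were used, so counting error per gene is not given. Ratios used exact permutation tests (SciPy 1.17.1, Python 3.11.15). TPM is a share, so abundant transcripts that rise lower all others.

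The genes, lists and tests were chosen with earlier results of these data known. Named genes are the 9 and their pairs and, per list, the called ones of lowest adjusted p (at most 4) and the uncalled ones of highest TPM (at most 2); exceptions are stated. A few genes of this rule, and 1 of the 7 pairs, are not reported here, but stay in the fits, adjustments and list counts. The alternatives were other pseudocounts, filters, units, scalings and variance models, a replicate block and leaving out each library. After seeing the data, 3 more were added: limma on ratios, and gene-level coverage in place of TPM on 2 log scales. The second of these scales was devised once the result of the first was known, and both are reported.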

Additional observations from a re-analysis of the deposited data

How the results depend on the processing

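The 7 genes that rose kept direction and call under all 18 alternatives to the limma fit; their lowest log2 fold changes were 1.90 (SLC4A1), 1.27 (DMTN), 0.87 (EPB41), 0.69 (EPB42), 0.44 (SPTB), 0.39 (ADD1) and 0.32 (TMOD1). ANK1 was called higher with median-of-ratios scaling (0.18, adjusted p 0.0196) and after rescaling TPM to leave out globin and mitochondrial genes (0.16, adjusted p 0.0296). ADD2, at 0.10 in the fit reported, ran from -0.0027 (without control replicate 1) to 0.17 when 1 library was left out. Gene-level coverage turned it to -0.32 with 1 added directly (adjusted p 0.0553; 7 of the 9 genes and 7646 of all genes passed), and to -0.35 with each gene first brought to its mean TPM (adjusted p 0.0381; 8 of the 9 passed, 1 of them lower, and 7853 of all genes). Both coverage fits and the limma fit of ratios were chosen after seeing the data, and the second coverage fit after the first had been read. The limma fit of ratios, on log2(TPM + 1), gave differences of -0.40 for ADD2 to ADD1 and 1.003 for SPTB to SPTBN1. It gave 1.39 for SLC4A1 to SLC4A2, -1.19 for EPB42 to SLC4A1 and -0.38 for ANK1 to SPTB. All of these were past the threshold that 3 against 3 permutations cannot reach. Without the added 1, the difference in the log2 ratio of SPTB to SPTBN1 was 1.08. Leaving out 1 library moved the log2 ratio of TMOD1 to TMOD3 between -0.035 and 0.082. Of named genes not called in the fit reported, median-of-ratios scaling took KLF1 to 0.036 and the rescaled TPM took it to 0.015; leaving out 1 library moved KLF1 between -0.090 and 0.00021, ACTB between -0.000080 and 0.11, and EPOR between -0.033 and 0.068. The cause was not tested. Counts over all genes ran from 6345 to 7853 against 7657, but the number of genes tested also differed. The fit reported called 7657 of 14294. A mean TPM of 5 or more gave 6345 of 10188, and no filter on low values gave 6847 of 35241. With median-of-ratios scaling 49.5% of calls were higher, against 41.2% with TPM. Same-numbered libraries of the 2 groups did not deviate together (correlations 0.017, -0.027 and -0.012), and a fit with replicate block called 7012 genes and 7 of the 9 skeleton genes.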

Other observations

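Gene rows lying inside the skeleton genes were also read, and they are named here because of their position and after their values were seen. MIR486-1, the microRNA gene on the same strand as ANK1 near its 3' end, was at 3.51, 4.57 and 3.07 TPM with the MEN1 hairpin and at 1.76, 2.11 and 1.31 TPM in the controls (log2 fold change 0.79, adjusted p 0.00702 in limma). The MEN1 hairpin libraries were all above the controls. That order also held for ANK1 itself, but ANK1 barely differed and did not pass (log2 fold change 0.09, adjusted p 0.163 in limma). The microRNA row was not tested against its host. These poly(A) libraries do not measure the mature microRNA, and how reads were divided between the rows was not tested. MIR7855, on the same strand as SPTB and inside it, was at 1.17, 1.39 and 1.35 TPM with the MEN1 hairpin. In the controls it was at 0.549, 0.819 and 0.427 TPM. ENSG00000253389, an unnamed gene on the strand opposite ANK1, was at 1.42, 1.46 and 1.65 TPM against 0.626, 0.920 and 0.734 TPM. MIR7855 and ENSG00000253389 passed the filter on low values only through the MEN1 hairpin libraries. A row below 1 TPM throughout 1 group enters the fit only if all 3 libraries of the other group reach 1 TPM. For this reason no p-value is given for either row. All 3 of these rows were low, and their values were higher with the MEN1 hairpin. Other tested rows inside ANK1 were not called higher. Same-strand ENSG00000260588 was at 5.78 to 9.17 TPM and did not pass (log2 fold change -0.25, adjusted p 0.146 in limma). An opposite-strand Y_RNA row did not pass either (0.001, adjusted p 0.998 in limma). The opposite-strand ENSG00000289514, given above, was lower with the MEN1 hairpin (-0.48, adjusted p 0.00285 in limma).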
